A study of Macaca mulatta with 4 samples.

Results

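The netrin and Slit guidance system of the fetal cerebellum was followed through 9 genes, the ligand NTN1, the netrin receptors DCC, UNC5C and UNC5D, the ligands SLIT1, SLIT2 and SLIT3, and the Slit receptors ROBO1 and ROBO2. They were chosen by gene symbol and not by any measured value. Of the 9 symbols, 8 had a row among the 30807 genes of the deposited list, each with 1 row: DCC (ENSMMUG00000013999), UNC5C, UNC5D, SLIT1, SLIT2, SLIT3, ROBO1 and ROBO2. NTN1 was not analysed here.

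Netrins and Slits are secreted proteins that steer growing axons and migrating neurons. Netrin-1 attracts through DCC and repels through UNC5 receptors, alone or paired with DCC, and Slits repel through ROBO receptors. In the cerebellum, granule cell precursors divide in the external granule layer, then leave the cycle, extend parallel fibers and migrate inward past Bergmann glia to the internal granule layer, and netrin receptors and Slits have been tied to this migration.

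Single-nucleus RNA was sequenced from flash-frozen cerebellar hemispheres of 4 rhesus macaque fetuses, 2 without intervention (Control) and 2 exposed to 1 mg of intra-amniotic LPS, a bacterial cell wall component that triggers inflammation, 5 days before collection. Each group held 1 female and 1 male, and each fetus gave 1 10x library. The Control female and Control male were at 130 days of gestation, the LPS female at 131 days and the LPS male at 133 days, so LPS exposure and the later age cannot be told apart. The comparison asks how the guidance genes differed between exposed and unexposed fetuses, beside where in the tissue they were transcribed.

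Unique molecular identifiers (UMIs) count the transcripts behind each barcode. A barcode was kept as a nucleus if it had 500 genes or more and mitochondrial UMIs made up no more than 5%, which left 9250, 8621, 6890 and 7804 in the Control female, Control male, LPS female and LPS male, and values for the libraries are given in this order throughout. Median UMIs per nucleus were 4508, 1882, 4063 and 2308.5, so both female libraries were deeper than both male libraries. The LPS male stood apart from the other libraries. Only 38.7% of its UMIs lay in nuclei, against 58.7 to 73.9% in the others, 35.8% of its granule lineage nuclei were in the mature stage, against 6.29 to 9.20%, and 1906 of the 2491 nuclei of a low-UMI cluster that was left unnamed were its own. Pairs of libraries shared 16 to 21 barcodes, where 7.91 to 11.7 would be met by random drawing. Levels of the members are therefore given library by library where a result turns on them.

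Nuclei were clustered with the 8 genes, and 36 related pathway genes, held out of the clustering, so that the members did not shape the groups over which they are described. Of 32565 nuclei, 22321 formed the granule lineage, which was split by stage markers into 1747 proliferating precursors (MKI67, TOP2A), 2799 committing cells (HES6, BOC), 4559 migrating cells (DCX, EBF3), 6213 maturing cells (CNTN2, CLSTN2), 4053 later maturing cells (TRPC7, TENM2) and 2950 mature cells (GABRB2, GABRA6). Between 8 and 12 markers of the own stage were raised in each granule cluster, of 10 to 12 detected. Precursors, migrating cells and maturing cells each pooled clusters. CNTN2, a maturing marker, was among the top 10 genes of a migrating cluster and of no maturing cluster. The levels below are UMIs summed over the nuclei of a group in a library, as counts per 1e+06 of that sum (CPM), and they describe the groups with no test, because the groups were made from the same nuclei.

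Among the netrin receptors, DCC, the receptor through which netrin-1 attracts, was a gene of early granule cells. In proliferating precursors DCC stood at 2172, 1036, 2200 and 1769 CPM, and in committing cells at 3420, 1713, 3479 and 2293 CPM. In migrating cells it had 382, 258, 524 and 429 CPM. This stage pooled clusters unlike in DCC. The cluster with HUNK among its top genes had 632, 340, 861 and 618 CPM. That with GALNT14 had 79.6, 156, 109 and 202 CPM. The level in committing cells was 5.35 to 8.94 times that in migrating cells, and it was above that in precursors, and that in precursors above that in migrating cells, in 4 of 4 libraries. From the maturing stage onward DCC had 54.8 to 199 CPM, and the order of the maturing, later maturing and mature stages was not the same in every library. RNA free in the droplets, read from barcodes with too few UMIs to be nuclei, held 606 to 888 CPM of DCC. With the estimated free RNA subtracted, maturing cells had 0, 6.55, 0 and 25.4 CPM of DCC, and committing cells 3827, 1846, 3912 and 2831 CPM.

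UNC5C, a receptor through which netrins repel, was kept for longer than DCC along the same stages. Migrating cells, in which DCC was already low, had 6066, 2791, 5304 and 3651 CPM of UNC5C, close to the 6101, 3028, 5442 and 3474 CPM of committing cells. The order of these stages was not the same in every library, committing being higher in 3 of 4. Precursors had 4921, 2269, 4233 and 2907 CPM, below committing cells in 4 of 4 libraries. Between the migrating and the maturing stage the level differed by 2.01 to 2.91 times, and later maturing and mature cells were lowest, at 682 to 1465 CPM, with no fixed order between them. The maturing stage pooled unlike clusters. The cluster with IL20RB among its top genes had 3065, 1917, 3185 and 2082 CPM of UNC5C. That with CHRM3 had 1693, 1203, 1701 and 1414 CPM. By mean level DCC and UNC5C were highest in the same stage, and in the LPS male UNC5C was highest in migrating cells.

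UNC5D, a related receptor that also binds FLRT proteins, had a pattern with a gap. Committing cells had 1221, 837, 1511 and 1713 CPM of UNC5D, above every other stage in 4 of 4 libraries. Migrating cells had 72.8, 66.2, 62.2 and 507 CPM, so the LPS male stood far above the other libraries, which lay close together. Committing cells exceeded migrating cells 12.6 to 24.3 times in the other libraries and 3.38 times in the LPS male. In later maturing cells UNC5D was higher again than in migrating cells in 4 of 4 libraries, at 784, 198, 357 and 605 CPM. UNC5D in the free RNA was 741.6 CPM in the LPS male and 233 to 330 CPM in the other libraries. After subtraction of the free RNA the LPS male still had 446 CPM of UNC5D in migrating cells and the others 35.9 to 43.2 CPM.

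The Slit receptors ran in opposite directions along the lineage. ROBO2 was highest in committing cells, at 7691, 5322, 8017 and 4102 CPM, 4.28 to 8.23 times the 1029, 999, 974 and 958 CPM of later maturing cells. Migrating cells and precursors came next, both below committing cells in 4 of 4 libraries. ROBO1 was lowest in committing cells, at 1108, 878, 1246 and 877 CPM, and reached 8048, 4349, 9104 and 2634 CPM in later maturing cells, from 3.0 to 7.31 times the committing level. Both are receptors through which Slits repel, and from the committing to the later maturing stage the level of ROBO2 was lower and that of ROBO1 higher in each of the 4 libraries.

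In mature cells ROBO1 had 7398, 5157, 11859 and 1840 CPM. The LPS male was low here, and with 35.8% of its granule nuclei in this stage it held far more mature nuclei (1557) than any other library (408 to 557). Mature cells were above later maturing cells in 2 of 4 libraries, so these neighbours did not differ beyond their spread. Later maturing cells were above maturing cells in 4 of 4 libraries. Within the maturing stage the CHRM3 cluster had 5257, 3236, 6984 and 2359 CPM of ROBO1. The IL20RB cluster had 1489, 1362, 1876 and 1172 CPM.

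**Figure D1:**
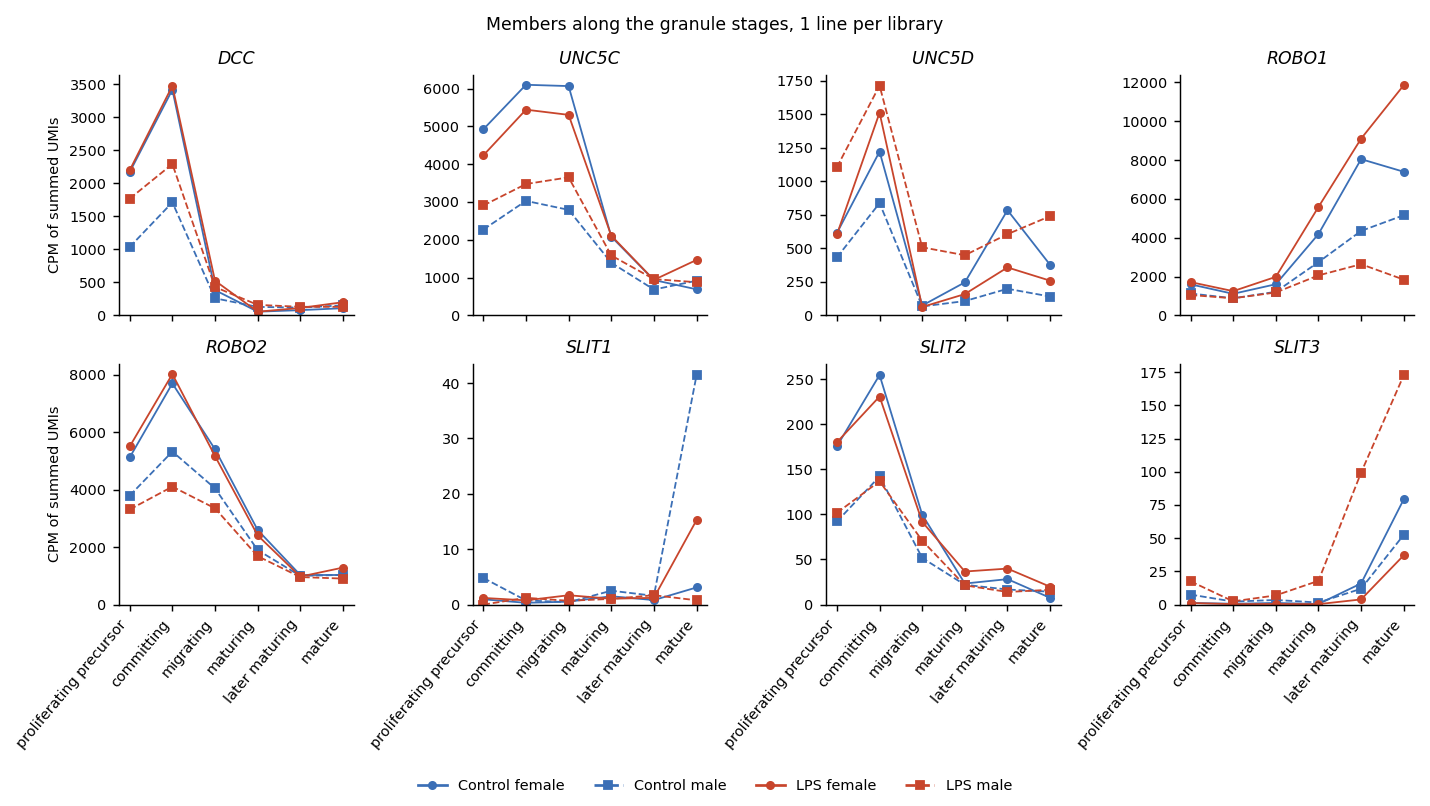
Level of each gene in CPM of summed UMIs (vertical axes, starting at 0) in the granule stages from proliferating precursor to mature (horizontal axis), with 1 line per library, solid for females, dashed for males, blue for Control and red for LPS. DCC, SLIT2 and ROBO2 were highest in committing cells in all 4 libraries, ROBO1 and SLIT3 were higher late, and UNC5D in the LPS male was 507 CPM in migrating cells against 62.2 to 72.8 CPM elsewhere.

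The Slit ligands were counted far less often, with 8236 UMIs of SLIT2, 2364 of SLIT3 and 455 of SLIT1 in all nuclei. SLIT2, the Slit best known for axon repulsion, followed the early pattern. Committing cells had 254, 142, 231 and 137 CPM of SLIT2 and precursors 176, 92.1, 180 and 102 CPM. Mature cells had 7.53, 14.3, 19.8 and 16.4 CPM. The order committing, precursor, migrating and maturing was the same in 4 of 4 libraries, and committing cells exceeded mature cells 8.31 to 33.8 times. With free RNA subtracted, committing cells had 285, 157, 258 and 164 CPM of SLIT2. Mature cells then had 1.98, 9.92, 15.4 and 9.06 CPM. The 3 late stages had no fixed order.

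SLIT3 was instead a gene of the mature stage, which held 50.8% of all its UMIs. The LPS male gave 1563 of the 2364 UMIs, and without that library the share was 39.7%. Mature cells had 79.3, 52.5, 37.1 and 173 CPM, from 179, 66, 73 and 882 UMIs, and later maturing cells 15.9, 11.9, 3.92 and 99.4 CPM. Mature cells were above later maturing cells, and these above every earlier stage, in 4 of 4 libraries. In committing cells SLIT3 had only 1 to 3 UMIs per library. The LPS male was highest in both late stages, and SLIT3 in its free RNA, at 40.9 CPM from 55 UMIs, was above the 3.60 to 8.21 CPM of the other libraries.

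SLIT1 was sparse in the lineage, with 34, 73, 53 and 13 UMIs in all granule nuclei. In committing cells it had 1 or 2 UMIs in each library. Mature cells held 7, 52, 30 and 4 of them, 3.10, 41.4, 15.3 and 0.783 CPM. The Control male and the LPS female accounted for nearly all, so the high value of this stage rests on these libraries. Free RNA held 1.49 to 7.20 CPM of SLIT1.

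The highest and lowest stages of each gene were picked by mean over the same libraries, so the next count is a description and no test. For 7 of the 8 genes the highest stage was above the lowest in every library. The exception was SLIT1, whose mature level in the LPS male, 0.783 CPM, was below the 1.23 CPM of 1 UMI in its committing cells. By mean level, DCC, UNC5C, UNC5D, SLIT2 and ROBO2 were highest in committing cells, and ROBO1, SLIT1 and SLIT3 in mature cells. A Slit ligand and a Slit receptor were found in each set.

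Outside the granule lineage, 11 classes had at least 10 nuclei in every library, and for 6 of the 8 genes (DCC, UNC5C, UNC5D, SLIT1, SLIT2 and ROBO1) the highest of these classes was above the granule lineage in every library. ROBO2 was above all of them in the granule lineage, and SLIT3 had no class above it in every library. The highest class too was picked by mean over the same libraries. Purkinje cells were few, 18 to 56 nuclei per library, and so were molecular layer interneurons, 37 to 75 nuclei, and Golgi cells, 15 to 85 nuclei.

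DCC was high in PAX2 interneurons and in astroglia. PAX2 interneurons, the immature inhibitory neurons that migrate through the cerebellar white matter, had 3741, 2948, 4286 and 731 CPM of DCC. The LPS male was low. Molecular layer interneurons, the basket and stellate cells that derive from such precursors, had 333, 376, 376 and 407 CPM. PAX2 interneurons exceeded them 7.83 to 11.4 times in the other libraries and 1.79 times in the LPS male.

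Bergmann glia, the radial glia along which granule cells migrate, had 3339, 1607, 3085 and 1503 CPM of DCC, 3.55 to 5.01 times the granule lineage as a whole. Proliferating glia had 3271, 1495, 3456 and 1218 CPM, and the other astrocytes 1801, 1055, 1590 and 864 CPM, below Bergmann glia in 4 of 4 libraries. The female libraries were higher than the male libraries in each of these glial groups. In the Bergmann glia cluster 19.1% of barcodes were called doublets, and with doublets removed DCC there was 3937, 1887, 3425 and 1703 CPM, no lower than before.

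Of the oligodendrocyte groups compared, DCC was lowest in a cluster that was left unnamed and given no stage. Oligodendrocyte precursors had 1489, 1558, 1145 and 763 CPM. The unnamed cluster, with BCAS1 and ENPP6, genes of newly formed oligodendrocytes, among its top 10 genes, had 298, 334, 429 and 332 CPM. Precursors were 2.30 to 5.00 times higher, in 4 of 4 libraries. Mature oligodendrocytes had 579, 401, 838 and 978 CPM of DCC, above the BCAS1 and ENPP6 cluster in 4 of 4 libraries, and in the LPS male above the precursors. These groups were small, 37 to 62 precursors and 23 to 26 nuclei of the other cluster per library.

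UNC5C was highest in inhibitory interneurons. Molecular layer interneurons had 12230, 5928, 12070 and 4324 CPM of UNC5C, PAX2 interneurons 8743, 5741, 10236 and 4316 CPM, and Golgi cells, the inhibitory neurons of the granular layer, 9064, 4330, 10262 and 3022 CPM. The first of these was above PAX2 interneurons in 4 of 4 libraries, though barely in the LPS male, and PAX2 interneurons and Golgi cells could not be ordered. Bergmann glia, high in DCC, had 460 to 792 CPM of UNC5C, and molecular layer interneurons exceeded them 5.46 to 22.9 times. With free RNA subtracted, Bergmann glia had 318, 173, 297 and 279 CPM. The interneurons then had 13498, 6537, 12898 and 4707 CPM.

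UNC5C was also a gene of mature oligodendrocytes, at 3382, 2112, 3474 and 3541 CPM. The BCAS1 and ENPP6 cluster had 276, 200.4, 401 and 703 CPM, and the mature cells exceeded it 5.04 to 12.3 times. Precursors had 698, 884, 865 and 558 CPM of UNC5C, below mature cells in 4 of 4 libraries. The mature group held only 12 to 64 nuclei per library.

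UNC5D had its highest level in unipolar brush cells, excitatory interneurons of the granular layer, which were too few to test (21, 8, 10 and 37 nuclei). They had 6103, 2694, 3072 and 4122 CPM of UNC5D, 5.75 to 12.1 times the granule lineage. Among the larger classes endothelial cells, at 738, 826, 731 and 820 CPM, and Purkinje cells, at 964, 539, 771 and 549 CPM, were highest by mean and had no fixed order. In the LPS male, astrocytes (745 CPM) and PAX2 interneurons (585 CPM) were above Purkinje cells.

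ROBO1 outside the granule lineage was highest by mean in fibroblasts, the meningeal cells that cover the surface on which granule precursors lie. Fibroblasts had 4639, 4091, 6223 and 2895 CPM. The few unipolar brush cells came next by mean, at 3054, 984, 3117 and 1343 CPM. Endothelial cells had 460, 462, 365 and 492 CPM, and fibroblasts exceeded them 5.89 to 17.0 times. After subtraction of the free RNA, in which ROBO1 had 1801 to 2549 CPM, fibroblasts had 5095, 4372, 7307 and 3088 CPM. Endothelial cells then had 25.5, 28.7, 191 and 357 CPM, and astrocytes 51.0, 27.8, 51.3 and 20.8 CPM. ROBO2 stayed below the granule lineage in every class, the highest being proliferating glia at 1745, 1588, 1605 and 821 CPM.

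The Slit ligands had other sources than the granule lineage, high in level but for SLIT2 and SLIT3 small in count. The granule lineage held 63.7% of SLIT2 and 74.1% of SLIT3 UMIs, and 63.8 and 68.9% without the LPS male. Molecular layer interneurons held 3.61% and fibroblasts 7.36% of SLIT2 UMIs, and unipolar brush cells 6.43% of SLIT3 UMIs. SLIT1 was a gene of molecular layer interneurons, at 69.0, 121, 52.8 and 113 CPM from 22, 30, 16 and 49 UMIs, and these few nuclei held 25.7% of all SLIT1 UMIs. The share was 24.2, 16.9, 17.2 and 52.7% by library, and 18.8% without the LPS male, below the 24.6% of mature granule cells. None of the other classes of the 11 had more than 25.7 CPM of SLIT1 in any library. By mean level SLIT2 was highest in the same interneurons, at 298, 210, 333 and 113 CPM, and in fibroblasts, at 169, 135, 519 and 80.2 CPM. These 2 classes had no fixed order. Purkinje cells were above the interneurons in the LPS female and above fibroblasts in the LPS male. SLIT3 was highest in unipolar brush cells, at 369, 342, 134 and 368 CPM, where 67, 8, 9 and 68 UMIs were counted, 28.8 to 34.6 times the granule lineage in the other libraries and 4.21 times in the LPS male.

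**Figure D2:**
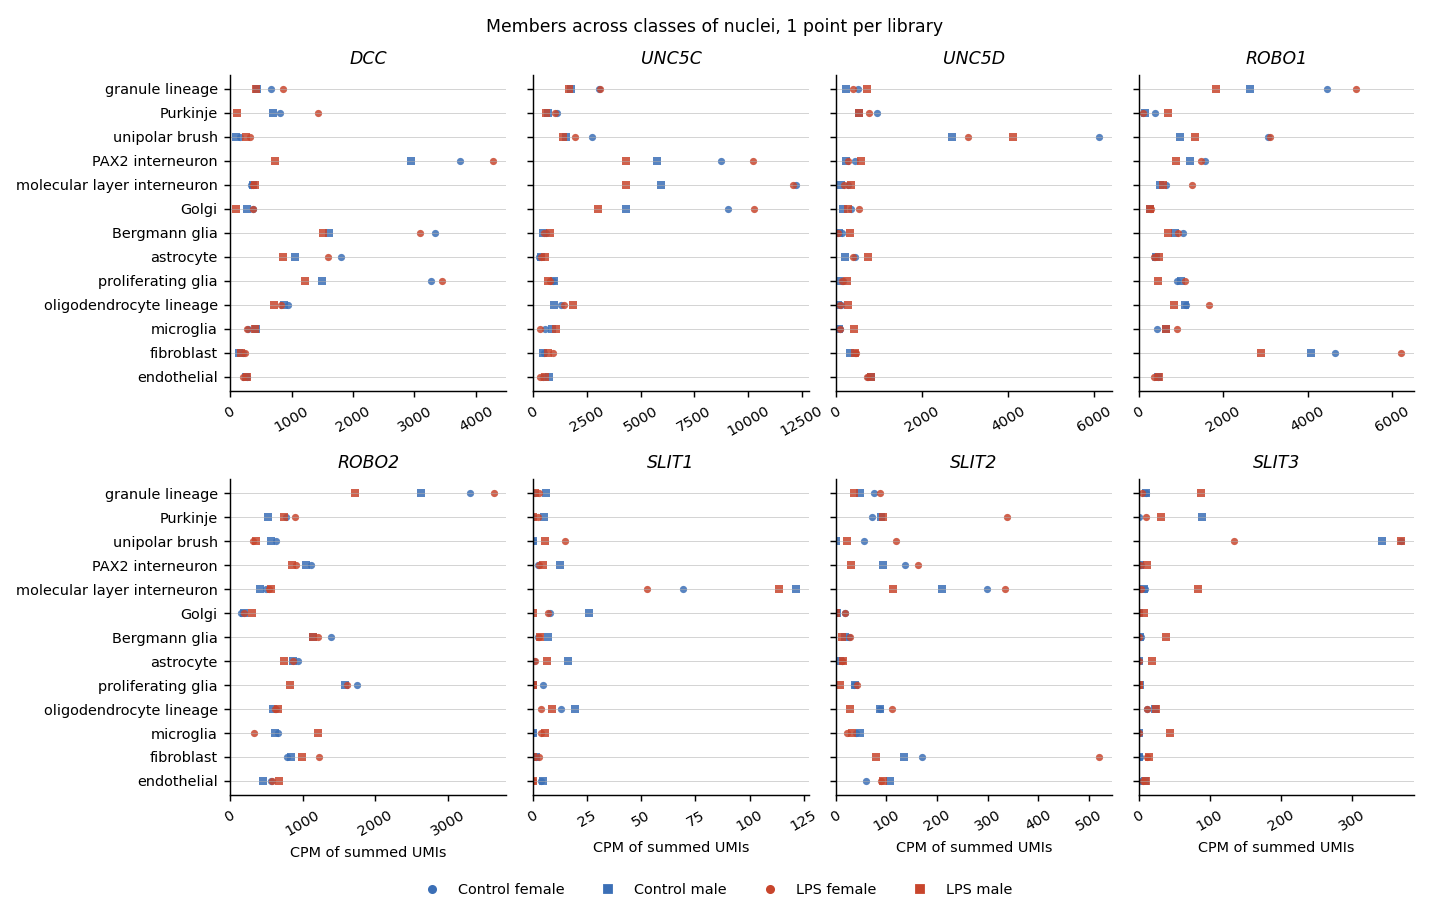
Level of each gene in CPM of summed UMIs (horizontal axes, starting at 0) in the granule lineage and 12 other classes of nuclei (vertical axis), with 1 point per library, circles for females, squares for males, blue for Control and red for LPS. UNC5C stands out in the PAX2, molecular layer and Golgi interneurons, UNC5D and SLIT3 in unipolar brush cells, SLIT1 in molecular layer interneurons and ROBO1 in fibroblasts, while ROBO2 is highest in the granule lineage.

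The genes whose pattern over the 6 granule stages and 11 classes was most like that of each member were listed among 9756 genes, by Pearson's r of log2(CPM + 1) averaged over the libraries, as a description over 17 groups that share the 4 libraries. ROBO2 was closest to NTN4, another netrin (r = 0.94), followed by FLRT3, a receptor partner of ROBO and UNC5 proteins (0.91), and SF3A2 (0.91). NTN4 had 1281, 1055, 1118 and 1378 CPM in committing cells and 170.1, 155, 159 and 143 CPM in mature cells. UNC5C was closest to RPH3A (0.92), ADARB2 (0.90) and the migrating stage marker SPOCK1 (0.85), ROBO1 to TWIST2 (0.90), ZIC4 (0.88) and SLC12A8 (0.86), and SLIT1 to SCUBE1 (0.89), HTR4 (0.84) and NXPH1 (0.83). DCC was closest to DMAC2L (0.87), RHBDL3 (0.87) and SORCS2 (0.85), SLIT2 to NHLRC4 (0.82), ENPP1 (0.78) and AK3 (0.77), SLIT3 to TMEM132D (0.81), GSG1L (0.79) and IGSF21 (0.78), and UNC5D to UTP4 (0.78), PDHA1 (0.76) and MED31 (0.75). Between the members themselves r lay between -0.48 (SLIT1 and ROBO2) and 0.44 (SLIT1 and SLIT3).

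LPS and Control libraries were compared by edgeR's quasi-likelihood test on summed UMIs, with all genes in the fit. A call needed a Benjamini-Hochberg adjusted p below 0.1 and a log2 fold change beyond 0.25 in either direction. In the granule lineage 0 of 8 members were called, where 0% of the 14911 genes tested were. Without adjustment, p was below 0.05 for 26 genes by edgeR, none of them a member, and for 60 genes by DESeq2, 1 of them a member. DESeq2 called 0 members after adjustment. The median log2 fold change of the members was -0.02 and that of all genes 0.01. With 2 fetuses per group, a missed threshold does not show that levels were alike.

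The netrin receptors overlapped between the groups in the granule lineage. DCC had 667, 436, 852 and 424 CPM (log2 fold change 0.19, standard error 0.49, adjusted p = 1.00 by edgeR). The LPS female was highest and the LPS male lowest, so the groups overlapped. UNC5C had 3058, 1745, 3117 and 1646 CPM (log2 fold change -0.03, standard error 0.53, adjusted p = 1.00 by edgeR), and it split by sex, not by exposure. UNC5D had 504, 241, 408 and 717 CPM (0.57, standard error 0.54, adjusted p = 1.00 by edgeR). Here the LPS male was highest and the LPS female lay between the controls, with a log2 ratio of -0.30 between the females and 1.57 between the males. Without the LPS male the log2 fold change of UNC5D was 0.11.

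The Slit receptors did not separate the groups either. ROBO1 had 4453, 2639, 5150 and 1833 CPM (log2 fold change -0.04, standard error 0.65, adjusted p = 1.00 by edgeR), and ROBO2 had 3308, 2632, 3632 and 1716 CPM (-0.16, standard error 0.50, adjusted p = 1.00 by edgeR). For both the LPS female was highest and the LPS male lowest. DCC, UNC5C, ROBO1, ROBO2 and SLIT2 were higher in both females than in both males, as were 30.7% of the genes tested. A further 37.6% of genes, none of them a member, were lower in both females. Median UMIs per granule nucleus were 4353 and 3909 in the females and 1727 and 2695 in the males. The part of depth in this split was not tested.

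Of the ligands, SLIT2 had 75.1, 47.4, 87.7 and 36.6 CPM in the granule lineage (log2 fold change 0.00, standard error 0.55, adjusted p = 1.00 by edgeR). SLIT1 had 1.09, 6.08, 2.53 and 0.949 CPM (-0.96, standard error 1.00, adjusted p = 1.00 by edgeR), from 13 to 73 UMIs per library, and without the Control male the log2 fold change was 0.62. SLIT3 had 10.7, 10.2, 4.64 and 87.5 CPM (2.14, standard error 1.28, adjusted p = 1.00 by edgeR). The LPS male was far above the other libraries and the LPS female below both controls. Without the LPS male the log2 fold change of SLIT3 was -1.17.

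**Figure D3:**
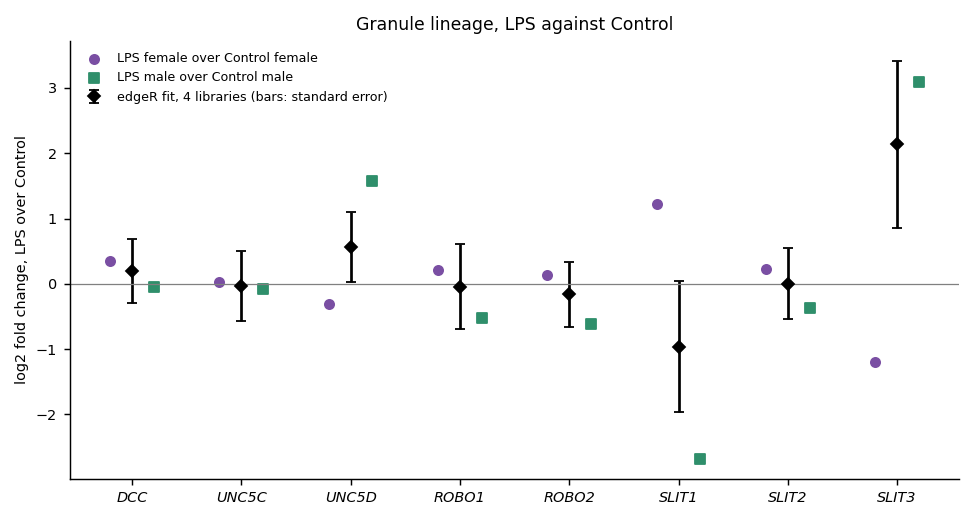
Log2 fold change of LPS over Control in the granule lineage (vertical axis) for the 8 genes (horizontal axis). Diamonds are the edgeR fit over 4 libraries with its standard error, circles the log2 ratio of the LPS female to the Control female and squares that of the males; for all 8 genes the 2 ratios lie on opposite sides of 0, and for UNC5D, SLIT1 and SLIT3 they are farthest apart.

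The LPS male was highest in both the share of mature nuclei and SLIT3. The part of the mature share in the SLIT3 value was not tested. When each library's stages were given the same weights, SLIT3 was 15.1, 11.9, 6.52 and 51.1 CPM, and the log2 ratio of the LPS mean to the Control mean was 1.09 in place of 2.14. The LPS male remained highest, and within the mature stage it had 173 CPM against 37.1 to 79.3 CPM. UNC5D with the same weights was 474, 235, 390.0 and 737 CPM, a log2 ratio of 0.67 in place of 0.59. For ROBO1 the same weights gave 4248, 2723, 5581 and 1728 CPM, a log2 ratio of 0.07 in place of -0.02.

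**Figure D4:**
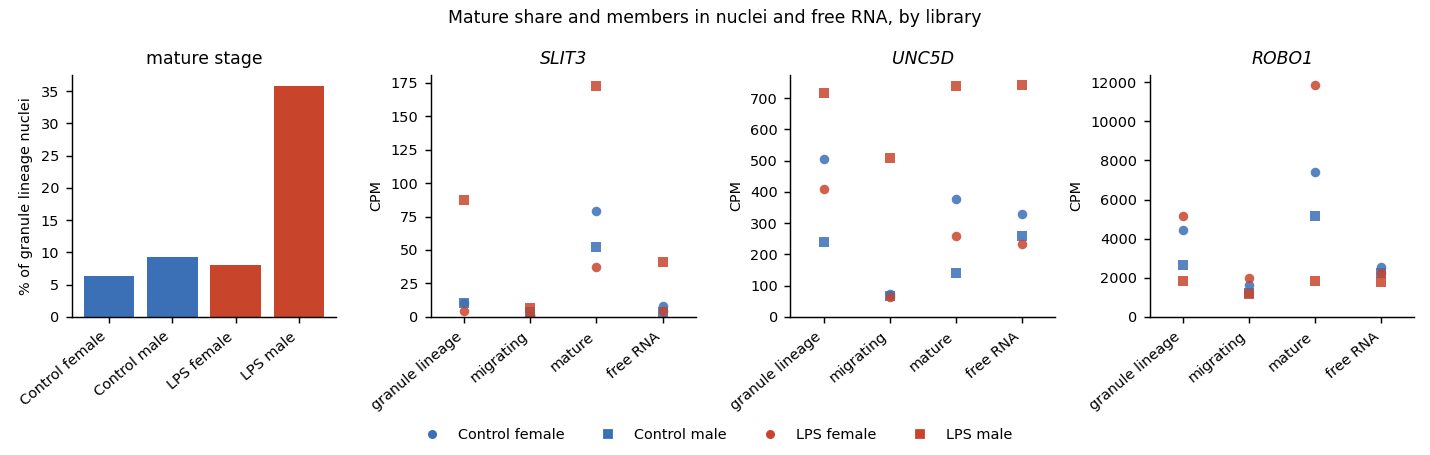
The left panel shows the share of granule lineage nuclei in the mature stage (vertical axis, percent) per library, 6.29, 9.20, 7.98 and 35.8%. The other panels show SLIT3, UNC5D and ROBO1 in CPM (vertical axes, starting at 0) in the granule lineage, migrating cells, mature cells and free RNA, with 1 point per library (circles females, squares males, blue Control, red LPS); the LPS male is highest for SLIT3 and UNC5D in nuclei and free RNA alike, and lowest for ROBO1 in mature cells.

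Within single stages edgeR called 0 members, at 0% of the genes tested in each stage. In committing cells UNC5D was above both controls in both LPS libraries (log2 fold change 0.65, standard error 0.35, adjusted p = 1.00 by edgeR). Groups that did not overlap, in either direction, were found for 18.1% of the 10943 genes tested in this stage. In migrating cells DCC, at 382 and 258 CPM in the controls and 524 and 429 CPM in the LPS libraries, did the same (0.57, standard error 0.35, adjusted p = 1.00 by edgeR), where 15.9% of genes did not overlap. In later maturing cells, where 14.1% of genes did not overlap, UNC5C lay above and ROBO2 below both controls in both LPS libraries. UNC5C had 934 and 682 CPM in the controls and 937 and 957 CPM in the LPS libraries. ROBO2 had 1029 and 999 CPM in the controls and 974 and 958 CPM in the LPS libraries, so both gaps were narrow. SLIT2 in mature cells lay above both controls in both LPS libraries, where 14% of genes did not overlap. None of the 7 members tested in precursors or the 6 in maturing cells separated the groups, against 15.6 and 14.6% of genes. Over the stages 5 of 41 member tests did not overlap (12.2%), beside 15.4% of the tests of all genes. Over the 14 other groups, of which the oligodendrocyte groups share nuclei, 19 of 83 did not overlap (22.9%), 13 with LPS above and 6 below, beside 20.5% of the tests of all genes.

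The member with the largest difference in each stage was SLIT3 in precursors (log2 fold change 1.10, from 4, 11, 3 and 19 UMIs) and later maturing cells (1.76), UNC5D in committing (0.65), migrating (2.00) and maturing cells (0.70), and SLIT1 in mature cells (-1.40). UNC5D in migrating cells had an adjusted p of 1.00 by edgeR and of 0.00362 with the filter on low counts left out, where 10 of 18746 genes (0.0533%) were called, and between 0.00362 and 1.00 over the alternatives. It was 507 CPM in the LPS male alone, and without this library its log2 fold change was -0.14. The values of the maturing stage (-0.14 for UNC5D), the precursors (-1.66 for SLIT3) and later maturing cells (-1.80 for SLIT3) also changed sign without it, and that of SLIT1 in mature cells was 1.25 without the Control male.

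Outside the granule lineage edgeR called 0 members in the 11 classes and 3 oligodendrocyte groups, at 0% of the genes tested. DESeq2 called 0 members too, beside 6 of 8522 genes in fibroblasts, 1 of 8070 in the oligodendrocyte lineage and 0 in the other groups. In Purkinje cells SLIT2, at 72.4, 89.0, 339 and 94.1 CPM from 12 to 156 UMIs, was highest in the LPS female (log2 fold change 1.47, standard error 0.66, adjusted p = 1.00 by edgeR). Both LPS libraries were above both controls, as for 11% of genes there, and without the LPS female the log2 fold change was 0.10. SLIT2 in fibroblasts, at 169, 135, 519 and 80.2 CPM, was also highest in the LPS female, while the LPS male was lowest (1.07, standard error 0.68, adjusted p = 0.999 by edgeR).

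DCC in PAX2 interneurons was 731 CPM in the LPS male and 2948 to 4286 CPM in the other libraries (log2 fold change -0.40, standard error 0.82, adjusted p = 1.00 by edgeR), and 0.39 without the LPS male. The same library had 109.8 CPM of DCC in Purkinje cells, from 14 UMIs, against 689 to 1422 CPM, and 30.7 CPM of SLIT2 in PAX2 interneurons, against 93.0 to 162 CPM. Its share of free RNA in PAX2 interneurons was estimated at 25.3%, against 13.5 to 15.1%, and with that subtracted DCC there was 771 CPM, against 3289 to 4889 CPM.

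UNC5D was the member with the largest difference in 8 of the 14 groups, with log2 fold changes from 0.55 in proliferating glia and 0.67 in Golgi cells to 1.54 in microglia and 1.72 in the BCAS1 and ENPP6 cluster (0.74 in Bergmann glia, 0.72 in astrocytes, 1.07 in the oligodendrocyte lineage and 1.30 in oligodendrocyte precursors). Counts were low in the BCAS1 and ENPP6 cluster (15, 1, 13 and 41 UMIs of UNC5D) and in oligodendrocyte precursors (6, 12, 5 and 32 UMIs). The oligodendrocyte lineage also held an unnamed cluster of 39 nuclei led by TRPC7 and NYAP2. Of its nuclei 20 were of the LPS male, and 35.9% were called doublets. A further unnamed cluster of 36 nuclei was led by TOP2A. The part of these clusters in the lineage value was not tested. Without the LPS male the log2 fold changes of UNC5D were 0.19 in proliferating glia, 1.13 in Golgi cells, 0.17 in microglia and 0.44 in the BCAS1 and ENPP6 cluster. They were -0.90 in Bergmann glia, 0.29 in astrocytes, 0.04 in the oligodendrocyte lineage and -0.84 in oligodendrocyte precursors. Golgi cells were instead at -0.15 without the LPS female. The LPS male was the highest library in 12 of the 17 stages and classes for UNC5D, and in 5 of the 6 in which SLIT3 could be tested. The microglia cluster had F13A1 and MRC1, genes of border macrophages, among its top 10 genes. In this cluster UNC5D was 102, 81.4, 102 and 418 CPM. After subtraction of free RNA it was 53.6, 30.4, 81.8 and 270.4 CPM, so the LPS male remained highest. The LPS male was highest after subtraction in Bergmann glia, astrocytes, proliferating glia and the BCAS1 and ENPP6 cluster too, but not in Golgi cells. In the oligodendrocyte lineage UNC5D went from 114, 48.2, 85.6 and 283 CPM to 67.6, 0, 65.0 and 75.9 CPM. In oligodendrocyte precursors it went from 19.4, 114, 30.4 and 252 CPM to 0, 80.9, 0 and 82.3 CPM. In both, the LPS male was then close to a Control library. Without the LPS female, UNC5D in microglia passed the threshold (log2 fold change 2.22, adjusted p = 0.0136 by edgeR, against 1.00 with all libraries), as did 4.66% of the 5813 genes tested there. So did SLIT3 in Bergmann glia (3.69, adjusted p = 0.00165 by edgeR), where 0.441% of genes were called. SLIT3 had 10, 3, 2 and 45 UMIs there and did not pass the filter on low counts with all libraries. Both set the LPS male alone against the controls, with the spread taken from the controls and assumed for the LPS male, so they restate the high value of that library. For ROBO1 the LPS male was the lowest library in 12 of 17 groups and the LPS female the highest in 12.

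In edgeR's main fit (all libraries, filter on low counts, TMM, no covariate), the members with an unadjusted p under 0.05 were all in the oligodendrocyte groups. They made up 2 of 124 member tests over the stages and other groups (1.61%), beside 0.574% of the tests of all genes. Such tests repeat the same genes over groups from the same libraries, some sharing nuclei, so they were not independent. In the BCAS1 and ENPP6 cluster and mature oligodendrocytes, the groups that held these members, 37 of 3166 and 66 of 3424 genes were below the same p. The count depends on the fit, and with sex as a covariate it was 14 of 124 (11.3%), beside 3.41% of all tests. With free RNA subtracted it was 10 of 119 (8.40%), beside 0.802%. With no filter on low counts it was 19 of 160 (11.9%). All genes below this p then ran from 121 of 18258 in precursors to 469 of 16487 in fibroblasts. Their share over all groups together was not taken there. Members outside the oligodendrocyte groups were below this p in each of these fits. UNC5C in the BCAS1 and ENPP6 cluster was 276 and 200.4 CPM in the controls and 401 and 703 CPM in the LPS libraries (log2 fold change 1.13, standard error 0.48, adjusted p = 0.999 by edgeR). ROBO1 in mature oligodendrocytes was 339 and 279 CPM in the controls and 886 and 497 CPM in the LPS libraries (1.17, standard error 0.53, adjusted p = 1.00 by edgeR). Both LPS libraries were above both controls in each case, as for 13 and 12.6% of genes tested in these groups, and each sum came from 12 to 64 nuclei. The mature oligodendrocytes joined 2 clusters in different mixes, with 11, 5, 9 and 58 nuclei of the first and 9, 7, 4 and 6 of the second. ROBO1 was also the member with the largest difference in molecular layer interneurons (0.65, and -0.17 without the LPS female), and UNC5C in endothelial cells (-0.43, but 0.069 with doublets removed and 0.025 with free RNA subtracted).

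Around the members, a pathway list held 44 genes of netrin and Slit signalling, of which 36 were in the gene list and 36 could be tested in the granule lineage. None was called by edgeR or DESeq2. The highest log2 fold change was that of MYO10, a myosin that carries DCC into growing filopodia, at 1.31 (standard error 0.86, adjusted p = 1.00 by edgeR), with 85.7, 70.7, 54.4 and 335 CPM, so it was high in the LPS male alone, and the log2 fold change was -0.53 without it. The lowest was that of UNC5A, another netrin receptor, at -0.75 (standard error 0.63, adjusted p = 1.00 by edgeR), with 27.7, 105, 33.0 and 43.4 CPM, the Control male being highest.

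By role, 0 of 3 other netrins and netrin G genes, 0 of 4 other netrin receptors and 0 of 2 other ROBO receptors were called. Of the rest, 0 of 9 co-receptors and partners, 0 of 8 ROBO effectors and 0 of 10 DCC effectors were called. In this order of roles the median log2 fold changes were 0.49, -0.29, 0.22, 0.00, -0.11 and -0.06, beside 0.01 over all genes. The netrin G genes NTNG1 and NTNG2 were above both controls in both LPS libraries, as were 7.19% of genes. NTNG1 had 20.1 and 21.9 CPM in the controls and 29.2 and 29.9 CPM in the LPS libraries. DSCAM, a netrin receptor, was at 218 and 208 CPM in the controls and 186 and 138 CPM in the LPS libraries, below both controls in both LPS libraries. The same held for DAG1, a co-receptor through which Slits are bound, and for the ROBO effectors ABL1 and EVL, and for 5.05% of genes. These 6 genes were picked out after their values were seen.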

How the data were processed

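Single-nucleus libraries (10x 3′ v3.1) were mapped by the authors with Cell Ranger to Mmul_8.0.1, introns included. The submitters' processing notes give Cell Ranger 4 and the protocol text a later version. The deposited values are counts, unfiltered UMI counts per gene and barcode. All barcodes of 1 fetus are in 1 library, and groups follow the labels.

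Nuclei (500 or more genes, no more than 5% mitochondrial UMIs) were integrated with Seurat 5.3.0 (2000 variable features, 30 dimensions, resolution 0.5) and named from fixed marker lists. The rules that leave clusters unnamed or place cycling clusters were completed after seeing the clusters. Scrublet (in scanpy 1.11.5) called doublets, which were kept in the main values and removed in an alternative. An exception was a cluster of 759 nuclei, 62.6% of them called doublets, which was left unnamed and out of every class. Scrublet's automatic threshold failed for both male libraries, where the median of the others was used. Barcodes with at most 100 UMIs gave the free RNA. UMIs were summed per library and group and tested with edgeR 4.0.16 (filterByExpr, TMM, quasi-likelihood, Benjamini-Hochberg over all genes) and DESeq2 1.42.0, after a test on simulated counts. A fold change is fitted with edgeR's prior count. The depth was 20117750 to 45575429 UMIs in nuclei per library, and UMI counts are given beside the sparsest values. Alternatives were DESeq2, no filter, no TMM, at least 1000 genes, doublets removed, free RNA subtracted, sex as a covariate, leaving out each library and, for granule levels, equal stage weights.

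The members, the pathway list, the marker lists (drawn partly from the study's own markers on these libraries) and the tests were chosen with earlier results of these data known. Named genes were all members, the members called or, where none was, the one with the largest difference in each group, the pathway genes called or otherwise the highest and lowest, and the 3 genes most like each member. Nuclei were few in unipolar brush, choroid and mural groups, which were not tested. Positions and sequences are not used here.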

Additional observations from a re-analysis of the deposited data

Results flagged for a closer look

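In the granule lineage the log2 ratios of LPS over Control had opposite signs in females and males for all 8 genes, as in 54.5% of the genes tested. The ratios in females and males were farthest apart for SLIT3 (-1.20 and 3.09), SLIT1 (1.22 and -2.68) and UNC5D (-0.30 and 1.57). They were 0.35 and -0.041 for DCC, 0.028 and -0.084 for UNC5C, 0.22 and -0.37 for SLIT2, 0.21 and -0.53 for ROBO1 and 0.13 and -0.62 for ROBO2. With 1 library per sex and group the difference between the sexes was not tested. SLIT1 rests on 13 to 73 UMIs per library.

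The free RNA of the LPS male, which was not compared between the groups and served only for subtraction, held 741.6 CPM of UNC5D and 40.9 CPM of SLIT3, more than double the higher control (330 and 8.21 CPM). In the free RNA of the LPS female they were 233 and 4.01 CPM.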

How the results depend on the processing

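The labels give no replicate numbers by which to pair fetuses, the numbers of the samples being names in accession order, so libraries could be matched by sex only. Each group held 1 female and 1 male, and a fit with sex as a covariate, which matches the libraries in this way, changed no call of a member. The count of members called, 0 in the granule lineage and in all nuclei, was 0 under each alternative. Over the granule stages it was 1 with no filter on low counts (UNC5D in migrating cells) and 0 otherwise, and over the other groups it was 0 to 2 when each library was left out, 2 without the LPS female (UNC5D in microglia and SLIT3 in Bergmann glia, where 4.66 and 0.441% of all genes were called), and 0 otherwise. The counts of members with a stage or class order held in every library were 7 and 6, and 7 to 8 and 6 to 6 when each library was left out. The stages and classes compared were picked from the same libraries, so these counts test nothing.

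None of the members' log2 fold changes was called by edgeR with its filter and all libraries. Those given next changed sign, and the cause was not tested. In the granule lineage equal stage weights gave 0.060 for UNC5C and 0.068 for ROBO1, free RNA subtraction 0.031 for ROBO1, and for SLIT2 (0.00) DESeq2 gave -0.00038, removal of doublets -0.00044 and sex as a covariate -0.068. UNC5C in endothelial cells was 0.069 with doublets removed and 0.025 with free RNA subtracted.

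Leaving out each library in turn, the log2 fold changes in the granule lineage ran from -0.40 to 0.64 for DCC, -0.57 to 0.54 for UNC5C, -1.84 to 0.62 for SLIT1, -0.76 to 0.50 for SLIT2, -0.98 to 0.52 for ROBO1 and -0.80 to 0.28 for ROBO2, each lowest without the LPS female, and from -1.17 without the LPS male to 3.06 for SLIT3. Lowest without the LPS male were also SLIT3 in precursors (-1.66 to 2.67) and later maturing cells (-1.80 to 2.70), and UNC5D in migrating cells (-0.14 to 2.82), maturing cells (-0.14 to 1.59), Bergmann glia (-0.90 to 1.52) and oligodendrocyte precursors (-0.84 to 2.66). Lowest without the LPS female were SLIT1 in mature cells (-4.70 to 1.25), DCC in PAX2 interneurons (-2.29 to 0.39), ROBO1 in molecular layer interneurons (-0.17 to 1.14), UNC5D in Golgi cells (-0.15 to 1.5) and SLIT2 in fibroblasts (-0.96 to 1.77).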
